A study of Mus musculus with 12 samples.

Results

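Solute carriers are membrane proteins that move amino acids, sugars, nucleosides, lipids, vitamins, metals and inorganic ions across the plasma membrane and the membranes of organelles, and their genes carry symbols beginning with Slc or Slco. The genes described here are all those with a symbol of Slc and a digit, or Slco, other than the glucose transporter gene Slc2a1 and the lactate transporter gene Slc16a3, that were detected in F9 cells. Detected means a bead-array detection p under 0.01 on both arrays of at least 1 of 6 groups. By this rule 177 of 368 such genes on the platform were members, and 191 were not. The members were thus chosen by their detection p on these same arrays, so presence in some group is a condition of entry and no result. Slc16a10 and Slc36a1, at 0.009615, lay just inside the threshold, while Slc23a4 and Slc2a6, at 0.01175, lay just outside it; a threshold of 0.05 would have taken 206 genes. All 177 were tested through a probe that itself met the rule, and 61 had more than 1 tested probe.

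F9 is a mouse embryonal carcinoma (teratocarcinoma) line that retinoic acid turns toward primitive endoderm and that cAMP then moves toward parietal endoderm. Kdm3a is a demethylase of histone H3 that removes methyl marks associated with silent genes. The knock-down cells were F9 cells depleted of Kdm3a, labelled pRS-kdm3a, and they were set against control F9 cells, labelled CTL, with wild-type Kdm3a expression. Arrays were made of each cell type untreated (0 h), treated for 3 days with retinoic acid (72 h), and treated so for 3 days and then for 3 more with retinoic acid and cAMP together (6 d). Each of the 6 groups had 2 arrays, numbered 1 and 2 as the labels number the biological replicates; the labels do not say whether the knock-down line was a clone or a pool. Levels are background-corrected, quantile-normalized log2 intensities, so a difference of 1 is a 2-fold difference, and levels are compared between groups for one probe and never between probes. A member was called changed at a Benjamini-Hochberg adjusted p under 0.05 in a limma fit over 11621 genes and all 12 arrays.

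Within the Slc7 family, amino acid carriers such as Slc7a6, Slc7a7 and Slc7a8 work as light chains bound to a heavy-chain glycoprotein, whereas the Slc38 family couples glutamine uptake to sodium. In the early mouse embryo the parietal endoderm secretes a thick basement membrane, while the visceral endoderm absorbs nutrients and passes them on to the embryo. Most members of the Slc25 family sit in the inner mitochondrial membrane, and most of the Slc35 family carry nucleotide sugars into the Golgi apparatus and the endoplasmic reticulum.

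The knock-down held on these arrays: Kdm3a averaged 9.02 ± 0.037 in knock-down and 10.078 ± 0.006 in control cells at 0 h, then 8.23 ± 0.075 and 9.95 ± 0.08 at 72 h, and lastly 7.76 ± 0.161 and 9.32 ± 0.12 at 6 d (log2 intensity, SD, n = 2 each). Between 15204 and 18471 of 45281 probes were detected on an array at a detection p under 0.05, and replicates correlated at 0.954 to 0.993 over the tested probes. The 72 h arrays were brighter, with the 95th percentile of their raw values at 2162.3 to 2533.4, against 908.4 to 1720.4 for the remaining arrays. On 7902 probes with a detection p of 0.2 or more on every array, 3 arrays resembled each other weakly (r 0.085 to 0.115). They were knock-down 0 h array 2, knock-down 6 d array 2 and control 6 d array 2. The 4 arrays of 72 h gave 0.047 to 0.114, while other pairs lay between -0.254 and 0.08, a range that overlaps that of the 72 h arrays. The 3 arrays lie only just above the other pairs and were picked from these values. All 8 stem-state markers were detected in all 6 groups, and endoderm markers numbered 6 of 10 in knock-down and 5 of 10 in control cells at 0 h and 10 of 10 in each at 72 h and 6 d. Of 6 fibroblast markers, Thy1 and Dcn were each detected in some group, 1 marker in each group of 0 h and 6 d and 0 at 72 h, and Col1a1, Col1a2, Pdgfrb and Lum were not. Of 5 neural markers, Elavl3 and Map2 were detected in all 0 h and 72 h groups and none at 6 d, and Tubb3, Sox1 and Pax6 in no group, while the 4 macrophage and blood markers on the platform were not detected.

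Detection was broadest at 72 h, for transporters as for all probes. Of the 177 members, 128 were detected in knock-down and 132 in control cells at 0 h, then 155 and 161 with retinoic acid (72 h), and 142 in each with cAMP added (6 d). Of all probes, 38.93% to 40.79% were detected on each 72 h array and 33.58% to 38.3% on each other array, at a detection p under 0.05. Both were thus widest at 72 h. They differ in threshold and unit, genes on both arrays against probes on each, so the sizes of the rises were not compared. These numbers run alongside the brightness of the arrays given above, whose part in them was not tested. In all 6 groups 110 members were detected, and 12 were detected in exactly 1 group by the same rule. Those 12 were the amino acid carrier Slc16a10 in knock-down cells at 72 h; the lysosomal amino acid carrier Slc36a1, Slc49a4, Slc6a12 and Slco2b1 in knock-down cells at 6 d; the sodium, potassium and calcium exchanger Slc24a4, the aspartate and glutamate carrier Slc25a12 and the fatty acid carrier Slc27a1 in control cells at 72 h; and the zinc carriers Slc30a4 and Slc39a8, the large neutral amino acid carrier Slc43a1 and the cystine carrier subunit Slc7a9 in control cells at 6 d. Each of those 12 became a member only through the group named, so a high level there is a condition of entry and no result. By class, 15 of 16 members of the nucleotide sugar carriers and 21 of 25 mitochondrial carriers were detected in all 6 groups, against 2 of 10 carriers of organic ions and drugs.

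From 0 h to 72 h, changes ran in both directions. In knock-down cells 17 members were higher at 72 h than at 0 h (8.79% of all genes tested were) and 16 were lower (7.49%), which is 18.64% of the members in all. In control cells 15 were higher (8.14% of all genes) and 11 lower (6.58%), or 14.69% of the members. From 72 h to 6 d calls were fewer. In knock-down cells 5 members were higher (2.21% of all genes) and 5 lower (1.43%) at 6 d than at 72 h. In control cells 2 were higher (1.51%) and 5 lower (0.938%). At 72 h these shares lie near those of all genes. The calls at 6 d were 5.65% of the members in knock-down and 3.95% in control cells, above the shares of all genes but on few calls. Whether those shares differ was not tested, and the number of changed transporters is not taken as a result about the transporters. The members' median log2 change was 0.03 in knock-down and 0.10 in control cells from 0 h to 72 h, and -0.13 and -0.10 from 72 h to 6 d, beside medians of all genes of -0.0027, -0.0224, -0.0108 and -0.0022. Detection in only some groups makes a difference in level likelier without requiring one. A member that no array of a stage detected entered through the other stages, so its higher level there is a condition of entry. Among the 110 members detected everywhere, 2 were higher and 7 lower at 72 h in knock-down cells, and 3 and 5 in control cells. Among the other 67, 15 were higher and 9 lower in knock-down cells, and 12 and 6 in control cells. Since whole cultures were measured, fewer cells of a type and less RNA per cell cannot be told apart. No untreated group of 72 h or 6 d and no 6 d group on retinoic acid alone was measured. Retinoic acid, cAMP and time in culture thus cannot be told apart in these steps.

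The direction of such counts depends on the scaling. Centring each array on its median in place of quantile normalization put the median of all genes at 0.614 in knock-down and 0.577 in control cells at 72 h, a shift of 0.617 and 0.599, and at -0.425 and -0.45 at 6 d, a shift of -0.414 and -0.448. The calls at 72 h were then 75 higher and 7 lower in knock-down cells and 86 higher and 7 lower in control cells. Those at 6 d were 4 higher and 57 lower in knock-down cells and 2 higher and 55 lower in control cells. Of all 11621 genes, 4333 were then higher and 288 lower at 72 h in knock-down cells, and 4009 and 216 in control cells. At 6 d 220 genes were higher and 1996 lower in knock-down cells, and 182 and 2029 in control cells. Changes below are therefore relative to a genome-wide median near 0, and members whose call ended under median centring are named with that setting. With a block for the 3 arrays that resembled each other, calls at 72 h were 18 higher and 21 lower in knock-down cells (1181 and 1022 of all genes). In control cells they were 27 higher and 16 lower (1404 and 1180). At 6 d they were 10 higher and 7 lower in knock-down cells (415 and 299) and 5 each way in control cells (288 and 171). Each of the 4 arrays of the 2 groups compared was also left out in turn, which left 19 to 24 calls at 72 h in knock-down and 13 to 15 in control cells, and 0 to 10 and 0 to 3 at 6 d. Such a removal leaves 1 array in a group, assumed to vary like the other groups, and fewer degrees of freedom. Over 76 called values of named genes, 150 of 304 removals ended the call, but none turned the direction, and in those 150 the log2 change moved by a median of 0.108 and at most 0.856. The array is named below where its removal ended a call, which does not show that the change rested on it.

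**Figure D1:**
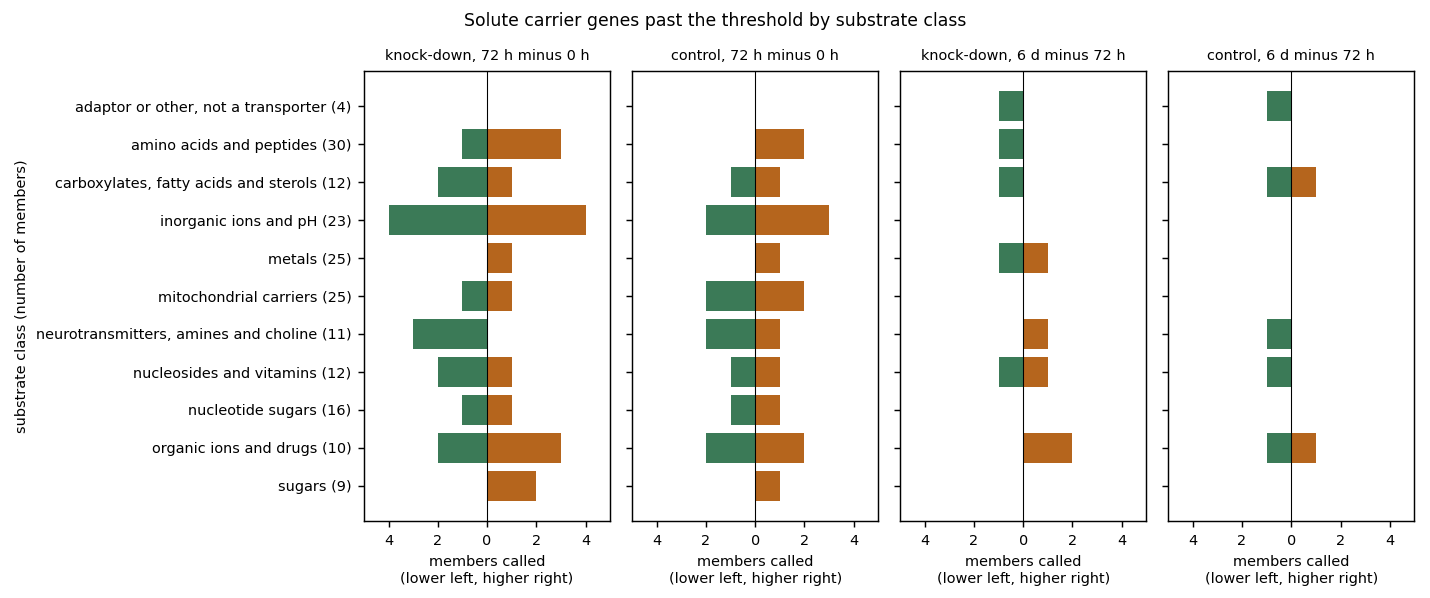
Number of solute carrier genes called lower (bars to the left) or higher (bars to the right) in each substrate class, with the number of members in brackets, for the knock-down and control cells at 72 h against 0 h and at 6 d against 72 h. Carriers of inorganic ions had 4 calls in each direction in knock-down cells and 3 higher and 2 lower in control cells at 72 h, and no class had more than 2 calls in a direction at 6 d.

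The transporters with the largest changes at 72 h in control cells were a nucleoside carrier and a fatty acid carrier among those that fell, and a glutamine carrier and an orphan protein of the Slc35 family among those that rose. Slc28a1 encodes a sodium-coupled transporter of pyrimidine nucleosides. Slc28a1 measured 9.26 and 9.65 (0 h), 5.07 and 5.82 (72 h) and 5.90 and 5.35 (6 d) in log2 units in knock-down cells. The Slc28a1 values of control cells were 9.33 and 9.40 (0 h), 5.77 and 5.61 (72 h) and 6.71 and 6.54 (6 d). Both 0 h groups lay far above every later array, and only at 6 d did the knock-down arrays lie below the control arrays. At 72 h Slc28a1 was lower (log2 change -4.01 ± 0.29, SE, adjusted p = 1.31e-05) in knock-down cells and lower (log2 change -3.67 ± 0.29, SE, adjusted p = 2.36e-05) in control cells, and it was detected on 1 of 2 knock-down arrays at 72 h and again at 6 d. Slc27a2 encodes a fatty acid transport protein that also activates very long chain fatty acids. Slc27a2 gave log2 intensities of 10.45 and 10.38 (0 h), 6.57 and 6.49 (72 h) and 4.80 and 5.12 (6 d) in knock-down cells. It gave 10.55 and 10.48 (0 h), 6.87 and 7.08 (72 h) and 5.48 and 5.51 (6 d) in control cells. The stages did not overlap, and in each stage both knock-down arrays lay below both control arrays. Slc27a2 at 72 h was lower (log2 change -3.88 ± 0.20, SE, adjusted p = 2.43e-06) in knock-down cells and lower (log2 change -3.54 ± 0.20, SE, adjusted p = 2.20e-06) in control cells. At 6 d it was not detected on any array, at least 1.97-fold lower (adjusted p = 0.00492) than at 72 h in knock-down cells and at least 2.57-fold lower (adjusted p = 0.00498) in control cells. Slc27a2 lost its call in knock-down cells at 6 d without array 1 at 72 h (0.0662), and with only the compared groups fitted, and in control cells at 6 d without array 1 at 72 h (0.057) or array 2 at 72 h (0.0961).

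Slc35g2 encodes a membrane protein related to the nucleotide sugar transporters, with no settled substrate. Knock-down cells had Slc35g2 log2 intensities of 4.86 and 4.66 (0 h), 7.36 and 7.94 (72 h) and 7.50 and 6.20 (6 d). Control cells had Slc35g2 at 4.63 and 4.75 (0 h), 7.73 and 7.93 (72 h) and 7.88 and 6.75 (6 d). No array detected it at 0 h, all 4 arrays of 72 h lay above those of 0 h, and the cell types overlapped at every stage. It became a member only through later groups, so its height there is a condition of entry. Slc35g2 was at least 3.8-fold higher (adjusted p = 0.00162) at 72 h than at 0 h in knock-down cells and at least 4.4-fold higher (adjusted p = 0.000983) in control cells. Slc38a5 encodes a sodium-coupled glutamine, histidine and asparagine transporter. The Slc38a5 probe read 5.14 and 4.70 (0 h), 7.45 and 8.14 (72 h) and 8.27 and 7.64 (6 d) on the log2 scale in knock-down cells. Slc38a5 in control cells read 5.79 and 5.86 (0 h), 8.62 and 8.75 (72 h) and 9.58 and 8.35 (6 d). Every later array lay above every 0 h array of the same cells, and both knock-down arrays lay below both control arrays at each stage. The Slc38a5 level at 72 h was at least 4.21-fold higher (adjusted p = 0.00087) in knock-down cells, where the gene was not detected at 0 h, and higher (log2 change 2.86 ± 0.39, SE, adjusted p = 0.00091) in control cells. All calls of Slc28a1, Slc35g2 and Slc38a5 at 72 h stood when each of the 4 compared arrays was left out in turn.

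The promoters of these 4 genes are printed because they head the falling and the rising members, the clearest cases of members that move together in both cell types. Each window runs from 250 bases before to 50 bases after the RefSeq start of the gene on GRCm38.p6, in the gene's own 5′ to 3′ direction, and all are from RefSeq. Capitals mark matches, on either strand, to AGGTCA (a core site of nuclear receptors), TGACGTCA (a cAMP response element) or GGGCGG (a GC box).
Slc28a1, chr7:81114549-81114848 (plus strand): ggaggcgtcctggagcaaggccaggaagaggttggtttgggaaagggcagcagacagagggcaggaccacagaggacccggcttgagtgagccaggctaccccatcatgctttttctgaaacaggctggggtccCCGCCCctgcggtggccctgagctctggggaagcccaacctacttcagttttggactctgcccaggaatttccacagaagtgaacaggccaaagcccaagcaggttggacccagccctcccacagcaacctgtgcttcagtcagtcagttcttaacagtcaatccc
Slc27a2, chr2:126552774-126553073 (plus strand): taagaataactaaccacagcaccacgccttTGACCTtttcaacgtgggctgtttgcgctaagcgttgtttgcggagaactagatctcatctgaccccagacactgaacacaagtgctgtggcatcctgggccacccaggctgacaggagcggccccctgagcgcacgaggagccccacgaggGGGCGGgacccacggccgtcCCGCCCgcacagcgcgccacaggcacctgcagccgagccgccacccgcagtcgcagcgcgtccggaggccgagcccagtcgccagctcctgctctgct
Slc35g2, chr9:100571036-100571335 (minus strand): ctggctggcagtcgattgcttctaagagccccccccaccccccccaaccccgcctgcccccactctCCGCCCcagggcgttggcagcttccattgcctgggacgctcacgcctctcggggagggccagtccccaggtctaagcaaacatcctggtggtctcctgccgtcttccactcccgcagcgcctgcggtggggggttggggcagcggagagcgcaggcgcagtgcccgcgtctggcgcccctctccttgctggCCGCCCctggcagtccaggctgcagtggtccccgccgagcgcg
Slc38a5, chrX:8271131-8271430 (plus strand): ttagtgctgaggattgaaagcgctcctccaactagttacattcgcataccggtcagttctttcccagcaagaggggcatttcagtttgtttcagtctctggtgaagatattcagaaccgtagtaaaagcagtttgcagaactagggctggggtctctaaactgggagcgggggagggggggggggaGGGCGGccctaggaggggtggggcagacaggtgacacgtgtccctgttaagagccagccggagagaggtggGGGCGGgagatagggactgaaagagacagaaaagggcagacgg

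Slc28a1 had 1 GC box, 116 bases before its start, and neither of the other motifs. Slc27a2 held an AGGTCA match 220 bases before its start and 2 GC boxes, and Slc35g2 and Slc38a5 held 2 GC boxes each and no other match. Among the 138 members with a promoter window in the RefSeq table, 15.22% held AGGTCA, 0.72% TGACGTCA and 72.46% GGGCGG, against 16.26%, 1.79% and 35.67% of all 32841 windows of that length. These sets are unlike: members give 1 window per gene and were chosen by detection, while the 32841 windows belong to 27018 genes, detected or not. No share was taken for detected genes, so the shares show no trait of solute carriers. Of 10 members lower at 72 h in both cell types, 8 had a window, and 25% of these held AGGTCA, 12.5% TGACGTCA and 100% GGGCGG. Of 11 members higher in both, 9 had a window, and 11.11% held AGGTCA, none TGACGTCA and 88.89% GGGCGG. The only member with TGACGTCA in its window was Slc25a36. These are matches of letters and describe the windows alone.

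**Figure D2:**
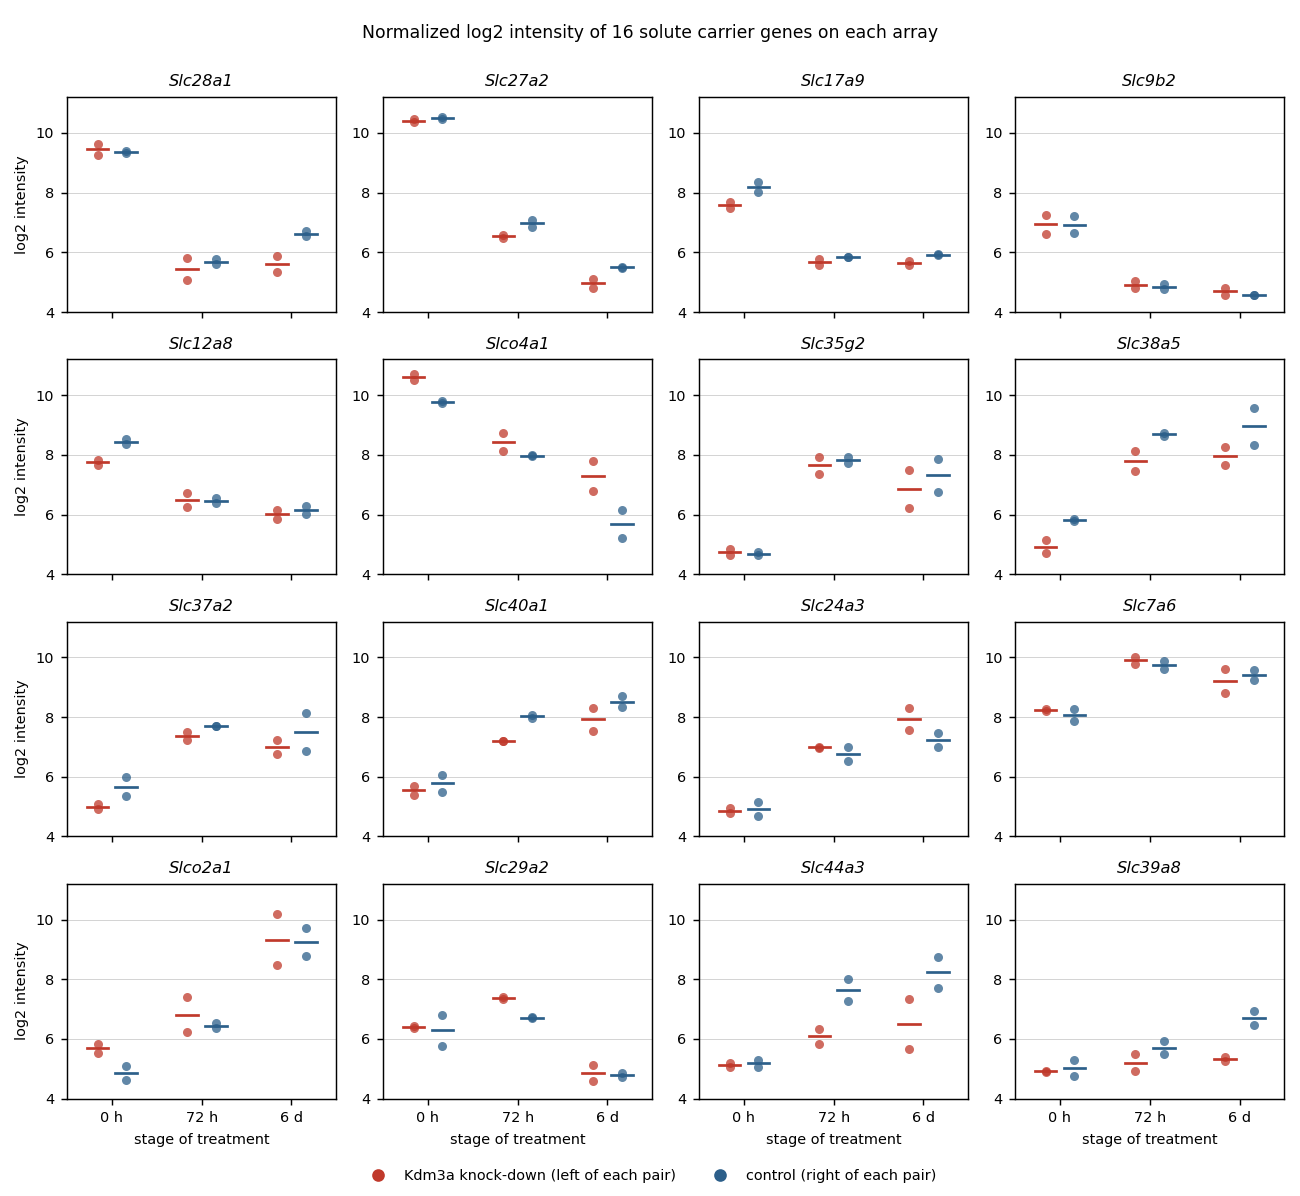
Normalized log2 intensity (y axis) of 16 solute carrier genes at 0 h, 72 h and 6 d (x axis), with each array as a point, knock-down left of control, and the mean of each group as a bar. Slc28a1, Slc27a2, Slc17a9 and Slc9b2 sit high at 0 h and low later, Slc35g2, Slc38a5, Slc37a2 and Slc24a3 do the reverse, and Slco2a1 is highest at 6 d.

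Among the 30 carriers of amino acids and peptides, 3 were higher and 1 lower at 72 h in knock-down cells, and 2 were higher and none lower in control cells; at 6 d 1 was lower in knock-down cells and none was called in control cells. Beside Slc38a5, the carrier that rose in both was Slc7a6, a light chain of the exchanger of cationic and large neutral amino acids. Slc7a6 measured 8.28 and 8.21 (0 h), 10.03 and 9.78 (72 h) and 9.60 and 8.80 (6 d) in log2 units in knock-down cells. The Slc7a6 values of control cells were 8.28 and 7.88 (0 h), 9.86 and 9.60 (72 h) and 9.57 and 9.23 (6 d). All 72 h arrays lay above all 0 h arrays, and knock-down and control arrays overlapped at every stage. At 72 h Slc7a6 was higher (log2 change 1.66 ± 0.29, SE, adjusted p = 0.00345) in knock-down cells and higher (log2 change 1.65 ± 0.29, SE, adjusted p = 0.00357) in control cells, and both calls stood without each compared array in turn. Members called in knock-down cells alone fall outside the rule for named genes and were chosen after their values were seen, here and in the classes that follow. As stated after the classes, no member passed an interaction test. Slc7a7, the sister light chain of Slc7a6, moved the other way. Slc7a7 gave log2 intensities of 11.58 and 11.54 (0 h), 10.52 and 10.31 (72 h) and 9.28 and 9.49 (6 d) in knock-down cells. It gave 11.38 and 10.99 (0 h), 10.58 and 10.77 (72 h) and 10.01 and 9.80 (6 d) in control cells. The arrays of knock-down cells fell stage by stage without overlap. Its knock-down level was lower (log2 change -1.14 ± 0.22, SE, adjusted p = 0.00556) at 72 h and lower (log2 change -1.03 ± 0.22, SE, adjusted p = 0.0289) at 6 d, while the control differences were -0.51 and -0.77 log2 and were not called; another Slc7a7 probe gave 0.30 at 72 h in knock-down cells. Slc7a7 lost its call in knock-down cells at 72 h without array 2 at 72 h (0.053), and with the mean of its probes or with median centring, and in knock-down cells at 6 d without array 1 at 6 d (0.0661), array 1 at 72 h (0.181) or array 2 at 72 h (0.116), and with only the compared groups fitted.

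Slc7a8, which encodes another light chain for neutral amino acids, was not detected on any array at 0 h, so its height in later groups is a condition of entry. It averaged 6.64 ± 0.03 in knock-down and 6.50 ± 0.29 in control cells at 72 h (log2, SD, n = 2), and was at least 1.89-fold higher (adjusted p = 0.0131) in knock-down cells and at least 1.75-fold higher (adjusted p = 0.0682), short of a call, in control cells. Slc7a8 lost its call in knock-down cells at 72 h without array 2 at 0 h (0.092), array 1 at 72 h (0.0815) or array 2 at 72 h (0.0723). Among the amino acid carriers detected in all 6 groups, the lysosomal histidine and peptide transporter Slc15a4 and the glutamine and alanine transporter Slc38a2 varied least, with group means spanning 0.504 and 0.666 log2. Slc38a2 read 12.43 and 12.10 in knock-down cells at 0 h, while its highest and lowest arrays of knock-down 6 d read 12.51 and 11.02.

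The 12 carriers of nucleosides and vitamins had 1 higher and 2 lower members at 72 h in knock-down cells and 1 each way in control cells, and at 6 d 1 each way in knock-down cells and 1 lower in control cells. Slc29a2, an equilibrative carrier of nucleosides, was the member called at 6 d in both. Knock-down cells had Slc29a2 log2 intensities of 6.43 and 6.37 (0 h), 7.34 and 7.39 (72 h) and 5.12 and 4.58 (6 d). Control cells had Slc29a2 at 6.80 and 5.78 (0 h), 6.72 and 6.69 (72 h) and 4.85 and 4.74 (6 d). The 6 d arrays were the lowest of all, and at 72 h both knock-down arrays lay above both control arrays. From 72 h to 6 d Slc29a2 was lower (log2 change -2.52 ± 0.31, SE, adjusted p = 0.00447) in knock-down cells and lower (log2 change -1.91 ± 0.31, SE, adjusted p = 0.0127) in control cells; 1 of 2 arrays detected it at 6 d in each. Slc29a2 lost its call in knock-down cells at 6 d without array 1 at 72 h (0.0555), and in control cells at 6 d without array 2 at 6 d (0.0827), array 1 at 72 h (0.15) or array 2 at 72 h (0.128), and with the mean of its probes.

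Slc46a3, a lysosomal membrane carrier, rose from 0 h to 72 h in both cell types. The Slc46a3 probe read 6.47 and 6.76 (0 h), 7.65 and 8.47 (72 h) and 9.29 and 9.51 (6 d) on the log2 scale in knock-down cells. Slc46a3 in control cells read 6.05 and 6.47 (0 h), 7.53 and 7.60 (72 h) and 8.56 and 8.02 (6 d). At every stage both knock-down arrays lay above both control arrays, although only just at 0 h and 72 h. Slc46a3 was higher (log2 change 1.44 ± 0.30, SE, adjusted p = 0.00938) at 72 h in knock-down cells and higher (log2 change 1.31 ± 0.30, SE, adjusted p = 0.0165) in control cells, and higher (log2 change 1.34 ± 0.30, SE, adjusted p = 0.0402) from 72 h to 6 d in knock-down cells. Slc46a3 lost its call in knock-down cells at 72 h without array 1 at 0 h (0.0607) or array 2 at 72 h (0.0888), and in control cells at 72 h without array 1 at 0 h (0.114), array 1 at 72 h (0.0915) or array 2 at 72 h (0.112), and in knock-down cells at 6 d without any 1 of its 4 arrays (adjusted p 0.0515 to 0.245), and without the 3 resembling arrays, with median centring or with only the compared groups fitted. The riboflavin transporter Slc52a3 was called in knock-down cells alone: it averaged 8.61 ± 0.03 in knock-down and 9.21 ± 0.16 in control cells at 72 h, against 9.93 ± 0.31 and 9.84 ± 0.03 at 0 h (log2, SD, n = 2), and was lower (log2 change -1.32 ± 0.26, SE, adjusted p = 0.00717). Slc52a3 lost its call in knock-down cells at 72 h without array 1 at 0 h (0.0563) or array 2 at 72 h (0.0528), and with median centring. The lysosomal nucleoside carrier Slc29a3 and the thiamine carrier Slc19a2 varied least, over 0.54 and 0.741 log2 between group means.

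Of the 9 sugar carriers 2 were higher at 72 h in knock-down cells and 1 in control cells, none was lower, and none was called at 6 d. Slc37a2, an exchanger of sugar phosphates in the endoplasmic reticulum, was higher in both. Slc37a2 measured 5.07 and 4.94 (0 h), 7.49 and 7.23 (72 h) and 7.24 and 6.76 (6 d) in log2 units in knock-down cells. The Slc37a2 values of control cells were 5.98 and 5.34 (0 h), 7.71 and 7.69 (72 h) and 8.14 and 6.85 (6 d). No 72 h array overlapped a 0 h array, and the knock-down arrays lay below the control arrays at 0 h and 72 h. Slc37a2 at 72 h was at least 3.11-fold higher (adjusted p = 0.00224) in knock-down cells and higher (log2 change 2.04 ± 0.38, SE, adjusted p = 0.00524) in control cells; a second probe gave -0.22 at 72 h in knock-down cells. Slc37a2 lost its call in knock-down cells at 72 h with the mean of its probes, and in control cells at 72 h without array 2 at 0 h (0.0545). Slc45a3, a member of a family of proton-coupled sugar carriers, averaged 7.36 ± 0.20 in knock-down and 6.57 ± 0.16 in control cells at 72 h and 8.30 ± 0.06 and 7.67 ± 0.34 at 6 d (log2, SD, n = 2), and was higher (log2 change 1.21 ± 0.33, SE, adjusted p = 0.0307) at 72 h in knock-down cells. Slc45a3 lost its call in knock-down cells at 72 h without any 1 of its 4 arrays (adjusted p 0.0811 to 0.17), and without the 3 resembling arrays or with a block for the 3 resembling arrays. Slc50a1, a sugar efflux carrier, and Slc37a3, a relative of Slc37a2, varied least, over 0.528 and 0.888 log2. Of the 16 members classed as nucleotide sugar carriers 1 was higher, Slc35g2, and 1 lower, Slc35f2, at 72 h in each cell type, and none was called at 6 d. Both stand in the class as relatives of such carriers, so neither call is one of a known nucleotide sugar carrier. Slc35f2 belongs to the same family by sequence and is known for importing drugs into cells. Slc35f2 gave log2 intensities of 9.25 and 9.14 (0 h), 7.29 and 7.65 (72 h) and 6.39 and 6.81 (6 d) in knock-down cells. It gave 9.22 and 8.96 (0 h), 7.25 and 7.61 (72 h) and 6.97 and 6.84 (6 d) in control cells. Every later array lay below every 0 h array. Slc35f2 was lower (log2 change -1.73 ± 0.24, SE, adjusted p = 0.000922) at 72 h in knock-down cells and lower (log2 change -1.66 ± 0.24, SE, adjusted p = 0.00119) in control cells, and these calls stood without each compared array. The steadiest members were Slc35a4 and Slc35e1 of the same family, whose group means spanned 0.157 and 0.21 log2.

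Carriers of carboxylates, fatty acids and sterols, 12 in number, had 1 higher and 2 lower at 72 h in knock-down cells and 1 each way in control cells, then 1 lower at 6 d in knock-down cells and 1 each way in control cells. Slc27a2 supplied a lower call at each step in both cell types. Slc16a9, an orphan of the monocarboxylate transporter family, rose at 6 d in control cells. Knock-down cells had Slc16a9 log2 intensities of 4.99 and 5.22 (0 h), 5.65 and 5.55 (72 h) and 6.67 and 6.53 (6 d). Control cells had Slc16a9 at 5.24 and 6.44 (0 h), 5.46 and 5.92 (72 h) and 7.18 and 7.26 (6 d). All 6 d arrays lay above all 72 h arrays, and at 6 d the knock-down arrays lay below the control arrays. Slc16a9 at 6 d was higher (log2 change 1.53 ± 0.34, SE, adjusted p = 0.0456) in control cells and higher (log2 change 1.00 ± 0.34, SE, adjusted p = 0.128), not called, in knock-down cells. Slc16a9 lost its call in control cells at 6 d without any 1 of its 4 arrays (adjusted p 0.104 to 0.324), and without the 3 resembling arrays, with a block for the 3 resembling arrays or without the detection filter. Slc16a6, a carrier that exports ketone bodies from the zebrafish liver, averaged 8.65 ± 0.12 at 72 h and 7.95 ± 0.04 at 0 h in control cells (log2, SD, n = 2), and was higher (log2 change 0.70 ± 0.20, SE, adjusted p = 0.0415) there. Slc16a6 lost its call in control cells at 72 h without any 1 of its 4 arrays (adjusted p 0.141 to 0.243), and with the mean of its probes.

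In knock-down cells alone, Slc16a13, another monocarboxylate transporter, was higher (log2 change 1.40 ± 0.25, SE, adjusted p = 0.00378) at 72 h, where it averaged 7.44 ± 0.31 against 6.05 ± 0.42 at 0 h (log2, SD, n = 2), a call that stood without each compared array; it was detected on 1 of 2 arrays at 0 h. Slc10a7, a relative of the bile acid transporters, was lower (log2 change -0.86 ± 0.26, SE, adjusted p = 0.0457) in knock-down cells, but under median centring its difference was 0.005, the only direction among the named calls to turn. Slc10a7 lost its call in knock-down cells at 72 h without array 1 at 0 h (0.154), array 2 at 0 h (0.133) or array 1 at 72 h (0.304), and without the 3 resembling arrays, with median centring, without the detection filter or with only the compared groups fitted. The long-chain fatty acid transporter Slc27a4 and the orphan Slc10a3 varied least, over 0.185 and 0.387 log2.

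The 10 carriers of organic ions and drugs, 2 of them detected in all 6 groups, had 3 higher and 2 lower at 72 h in knock-down cells. They had 2 each way in control cells, and at 6 d 2 higher in knock-down cells and 1 each way in control cells. Slco4a1, an organic anion transporter that takes up thyroid hormones, was lower at 72 h in both. The Slco4a1 probe read 10.71 and 10.51 (0 h), 8.74 and 8.11 (72 h) and 7.79 and 6.80 (6 d) on the log2 scale in knock-down cells. Slco4a1 in control cells read 9.79 and 9.75 (0 h), 7.96 and 8.00 (72 h) and 6.14 and 5.21 (6 d). The stages were ordered 0 h, 72 h, 6 d from high to low without overlap, and both knock-down arrays lay above both control arrays throughout. At 72 h Slco4a1 was lower (log2 change -2.18 ± 0.37, SE, adjusted p = 0.00335) in knock-down cells and lower (log2 change -1.79 ± 0.37, SE, adjusted p = 0.00976) in control cells, and from 72 h to 6 d it was lower (log2 change -2.30 ± 0.37, SE, adjusted p = 0.0127) in control cells, where 1 of 2 arrays detected it. In knock-down cells the step to 6 d was -1.13 log2 and was not called. Slco4a1 lost its call in control cells at 72 h without any 1 of its 4 arrays (adjusted p 0.0558 to 0.0719), and in control cells at 6 d without array 2 at 6 d (0.0877), array 1 at 72 h (0.141) or array 2 at 72 h (0.138).

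Slco2a1, the prostaglandin transporter, was higher at 6 d in both cell types. Slco2a1 measured 5.83 and 5.54 (0 h), 7.40 and 6.23 (72 h) and 10.19 and 8.47 (6 d) in log2 units in knock-down cells. The Slco2a1 values of control cells were 4.61 and 5.08 (0 h), 6.52 and 6.37 (72 h) and 9.72 and 8.78 (6 d). The 6 d arrays lay above all earlier arrays, and the 2 knock-down arrays of 6 d lay further apart than any other pair of this gene. Slco2a1 at 6 d was higher (log2 change 2.51 ± 0.54, SE, adjusted p = 0.0322) in knock-down cells and higher (log2 change 2.81 ± 0.54, SE, adjusted p = 0.0283) in control cells; leaving out single arrays gave 1.66 to 3.37 and 2.34 to 3.27 log2. Slco2a1 lost its call in knock-down cells at 6 d without array 1 at 6 d (0.0825), array 1 at 72 h (0.0946) or array 2 at 72 h (0.221), and with only the compared groups fitted, and in control cells at 6 d without any 1 of its 4 arrays (adjusted p 0.0617 to 0.227). Slco2b1, an organic anion transporter for steroid conjugates and drugs, averaged 6.48 ± 0.02 in knock-down and 5.34 ± 0.02 in control cells at 6 d (log2, SD, n = 2), and was at least 2.06-fold higher (adjusted p = 0.0282) in knock-down cells; no array detected it at 72 h, nor any control array at 6 d. It became a member only through knock-down cells at 6 d, so its height there is a condition of entry. Slco2b1 lost its call in knock-down cells at 6 d without any 1 of its 4 arrays (adjusted p 0.0585 to 0.16), and with only the compared groups fitted.

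Slc22a21, a carnitine transporter of the mouse, and Slc22a23, an orphan of the organic cation and anion family, were higher at 72 h in both cell types. Slc22a23 gave log2 intensities of 5.60 and 5.14 (0 h), 8.02 and 7.76 (72 h) and 8.15 and 6.97 (6 d) in knock-down cells. It gave 5.92 and 6.40 (0 h), 7.31 and 7.50 (72 h) and 7.29 and 6.84 (6 d) in control cells. All arrays of 72 h lay above those of 0 h, and the knock-down arrays lay below the control arrays at 0 h and above them at 72 h. Slc22a23 was at least 4.49-fold higher (adjusted p = 0.00125) in knock-down cells, not detected at 0 h, and higher (log2 change 1.25 ± 0.37, SE, adjusted p = 0.0444) in control cells. Slc22a23 lost its call in control cells at 72 h without any 1 of its 4 arrays (adjusted p 0.0885 to 0.223), and on the authors' processed values or without the detection filter. Slc22a21 averaged 6.39 ± 0.01 in knock-down and 6.67 ± 0.39 in control cells at 72 h (log2, SD, n = 2), at least 1.59-fold higher (adjusted p = 0.0128) and higher (log2 change 1.13 ± 0.30, SE, adjusted p = 0.0295) than at 0 h. Slc22a21 lost its call in knock-down cells at 72 h without any 1 of its 4 arrays (adjusted p 0.0511 to 0.0775), and on the authors' processed values, and in control cells at 72 h without array 1 at 0 h (0.188), array 1 at 72 h (0.232) or array 2 at 72 h (0.0599), and on the authors' processed values. The carnitine transporter Slc22a5 was higher (log2 change 1.45 ± 0.34, SE, adjusted p = 0.0167) at 72 h in knock-down cells, with group means spanning 1.45 log2. Slc22a5 lost its call in knock-down cells at 72 h without array 2 at 0 h (0.118), array 1 at 72 h (0.11) or array 2 at 72 h (0.0676), and with the mean of its probes. Slc47a1, which exports cationic drugs in exchange for protons, was lower at 72 h in both. Knock-down cells had Slc47a1 log2 intensities of 8.34 and 8.15 (0 h), 6.99 and 7.30 (72 h) and 6.52 and 6.83 (6 d). Control cells had Slc47a1 at 8.83 and 9.12 (0 h), 7.76 and 8.15 (72 h) and 7.76 and 7.18 (6 d). The 72 h arrays lay below the 0 h arrays of the same cells, and both knock-down arrays lay below both control arrays at each stage. Slc47a1 was lower (log2 change -1.10 ± 0.26, SE, adjusted p = 0.0177) at 72 h in knock-down cells and lower (log2 change -1.02 ± 0.26, SE, adjusted p = 0.0268) in control cells. Slc47a1 lost its call in knock-down cells at 72 h without any 1 of its 4 arrays (adjusted p 0.053 to 0.129), and with median centring, and in control cells at 72 h without any 1 of its 4 arrays (adjusted p 0.0657 to 0.205), and with the mean of its probes or with median centring.

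The 11 carriers of neurotransmitters, amines and choline had 3 lower and none higher at 72 h in knock-down cells and 1 higher and 2 lower in control cells, then 1 higher at 6 d in knock-down cells and 1 lower in control cells. Slc17a9 loads nucleotides such as ATP into secretory vesicles. The Slc17a9 probe read 7.49 and 7.68 (0 h), 5.58 and 5.79 (72 h) and 5.70 and 5.56 (6 d) on the log2 scale in knock-down cells. Slc17a9 in control cells read 8.37 and 8.03 (0 h), 5.84 and 5.83 (72 h) and 5.93 and 5.91 (6 d). The 0 h arrays stood apart from all later ones, and both knock-down arrays lay below both control arrays at each stage. At 72 h Slc17a9 was lower (log2 change -1.90 ± 0.20, SE, adjusted p = 0.000196) in knock-down cells and lower (log2 change -2.36 ± 0.20, SE, adjusted p = 4.20e-05) in control cells, and these calls stood without each compared array. Slc44a3 and Slc44a4, both of the choline transporter-like family, were called in opposite directions. Slc44a3 measured 5.06 and 5.19 (0 h), 5.83 and 6.33 (72 h) and 7.32 and 5.65 (6 d) in log2 units in knock-down cells. The Slc44a3 values of control cells were 5.30 and 5.07 (0 h), 7.28 and 8.02 (72 h) and 8.75 and 7.72 (6 d). Control arrays of 72 h and 6 d lay above all others of Slc44a3 except 1 knock-down array of 6 d, which lay just above the lower control array of 72 h. Slc44a3, not detected at 0 h, was at least 1.28-fold higher (adjusted p = 0.225) and not called at 72 h in knock-down cells, and at least 3.87-fold higher (adjusted p = 0.0087) in control cells. It became a member only through later groups, so its height there is a condition of entry. Slc44a3 lost its call in control cells at 72 h without array 2 at 0 h (0.0631) or array 2 at 72 h (0.0966).

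Slc44a4, a carrier of choline and of thiamine pyrophosphate, averaged 6.51 ± 0.25 in knock-down and 6.71 ± 0.47 in control cells at 72 h, against 7.67 ± 0.20 and 7.81 ± 0.08 at 0 h (log2, SD, n = 2), and was lower (log2 change -1.16 ± 0.28, SE, adjusted p = 0.0172) and lower (log2 change -1.10 ± 0.28, SE, adjusted p = 0.0238). Slc44a4 lost its call in knock-down cells at 72 h without any 1 of its 4 arrays (adjusted p 0.0505 to 0.128), and with median centring, and in control cells at 72 h without array 1 at 0 h (0.0846), array 2 at 0 h (0.122) or array 1 at 72 h (0.215), and with median centring. Slc18b1, a vesicular polyamine transporter, averaged 5.98 ± 0.04 at 6 d and 6.90 ± 0.03 at 72 h in control cells, and was lower (log2 change -0.92 ± 0.21, SE, adjusted p = 0.0473) there. Slc18b1 lost its call in control cells at 6 d without any 1 of its 4 arrays (adjusted p 0.121 to 0.301), and on the authors' processed values or with only the compared groups fitted. Slc6a12 carries betaine and the transmitter GABA. Slc6a12 gave log2 intensities of 6.25 and 5.95 (0 h), 5.33 and 4.96 (72 h) and 6.30 and 6.14 (6 d) in knock-down cells. It gave 5.28 and 4.87 (0 h), 5.23 and 5.70 (72 h) and 5.67 and 5.78 (6 d) in control cells. Knock-down arrays were high at 0 h and 6 d and low at 72 h, above the control arrays at 0 h and 6 d and overlapping them at 72 h. In knock-down cells Slc6a12 was at least 1.58-fold lower (adjusted p = 0.026) at 72 h, where it was not detected, and at least 1.71-fold higher (adjusted p = 0.0437) at 6 d. It became a member only through knock-down cells at 6 d, so its height there is a condition of entry. Slc6a12 lost its call in knock-down cells at 72 h without any 1 of its 4 arrays (adjusted p 0.058 to 0.173), and on the authors' processed values or with median centring, and in knock-down cells at 6 d without any 1 of its 4 arrays (adjusted p 0.0647 to 0.248), and on the authors' processed values or with only the compared groups fitted. The glycine transporter Slc6a9 and the creatine transporter Slc6a8 varied least, over 0.26 and 0.352 log2.

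Carriers of inorganic ions, 23 in number, had 4 higher and 4 lower at 72 h in knock-down cells and 3 higher and 2 lower in control cells, and none was called at 6 d. Slc24a3 exchanges sodium for calcium and potassium. Knock-down cells had Slc24a3 log2 intensities of 4.95 and 4.78 (0 h), 6.97 and 7.00 (72 h) and 8.30 and 7.55 (6 d). Control cells had Slc24a3 at 4.68 and 5.14 (0 h), 6.53 and 7.01 (72 h) and 7.47 and 7.01 (6 d). No array detected it at 0 h, and the cell types separated only at 6 d, where both knock-down arrays lay above both control arrays. It became a member only through later groups, so its height there is a condition of entry. At 72 h Slc24a3 was at least 2.4-fold higher (adjusted p = 0.00107) in knock-down cells and at least 2.11-fold higher (adjusted p = 0.0023) in control cells, and these calls stood without each compared array. Slc9b2, a sodium and proton exchanger, did the reverse. The Slc9b2 probe read 6.62 and 7.27 (0 h), 5.03 and 4.79 (72 h) and 4.81 and 4.58 (6 d) on the log2 scale in knock-down cells. Slc9b2 in control cells read 6.64 and 7.22 (0 h), 4.76 and 4.93 (72 h) and 4.56 and 4.56 (6 d). It was detected on all 0 h arrays and on none later. It thus became a member only through 0 h groups, so its height there is a condition of entry. Slc9b2 at 72 h was at least 2.84-fold lower (adjusted p = 0.00076) in knock-down cells and at least 2.84-fold lower (adjusted p = 0.000666) in control cells, and again stood without each compared array.

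Slc12a8, of the cation and chloride cotransporter family, fell in both. Slc12a8 measured 7.83 and 7.67 (0 h), 6.74 and 6.24 (72 h) and 6.17 and 5.84 (6 d) in log2 units in knock-down cells. The Slc12a8 values of control cells were 8.52 and 8.36 (0 h), 6.38 and 6.55 (72 h) and 6.01 and 6.30 (6 d). The 0 h arrays lay above all others, with the knock-down arrays below the control arrays at 0 h alone. Slc12a8 was lower (log2 change -1.26 ± 0.24, SE, adjusted p = 0.00541) at 72 h in knock-down cells and lower (log2 change -1.98 ± 0.24, SE, adjusted p = 0.000385) in control cells. Slc12a8 lost its call in knock-down cells at 72 h without array 2 at 72 h (0.0574), and with median centring. Slc4a4, a sodium bicarbonate cotransporter, was higher at 72 h in both. Slc4a4 gave log2 intensities of 5.87 and 5.24 (0 h), 7.52 and 7.19 (72 h) and 8.43 and 7.15 (6 d) in knock-down cells. It gave 5.80 and 5.06 (0 h), 6.93 and 6.79 (72 h) and 7.46 and 6.94 (6 d) in control cells. All 72 h arrays lay above all 0 h arrays, and at 72 h both knock-down arrays lay above both control arrays. Slc4a4 was higher (log2 change 1.80 ± 0.41, SE, adjusted p = 0.0144) in knock-down cells and higher (log2 change 1.43 ± 0.41, SE, adjusted p = 0.0422) in control cells, while another probe gave -0.10 in control cells; 1 of 2 arrays detected it at 0 h in each. Slc4a4 lost its call in knock-down cells at 72 h without array 2 at 0 h (0.105), array 1 at 72 h (0.105) or array 2 at 72 h (0.0578), and with the mean of its probes, and in control cells at 72 h without any 1 of its 4 arrays (adjusted p 0.0581 to 0.254), and on the authors' processed values, with the mean of its probes or without the detection filter. Slc24a4, sister of Slc24a3, was at least 1.37-fold higher (adjusted p = 0.0476) at 72 h in control cells, the only group through which it became a member. Slc24a4 lost its call in control cells at 72 h without any 1 of its 4 arrays (adjusted p 0.0779 to 0.259), and on the authors' processed values or without the detection filter.

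In knock-down cells alone 4 further ion carriers were called at 72 h. The sulfate and anion exchanger family member Slc26a10 was higher (log2 change 1.22 ± 0.34, SE, adjusted p = 0.0348) and the sodium and calcium exchanger Slc8a1 at least 1.43-fold higher (adjusted p = 0.0258). Slc26a10 lost its call in knock-down cells at 72 h without array 2 at 0 h (0.244), array 1 at 72 h (0.136) or array 2 at 72 h (0.151), and without the 3 resembling arrays, on the authors' processed values or with only the compared groups fitted. Slc8a1 lost its call in knock-down cells at 72 h without array 1 at 0 h (0.125), array 2 at 0 h (0.0624) or array 2 at 72 h (0.185), and on the authors' processed values. The proton and ammonia carrier Slc4a11 was lower (log2 change -1.33 ± 0.36, SE, adjusted p = 0.0308), and the sodium and proton exchanger of the Golgi and endosomes, Slc9a8, lower (log2 change -1.0 ± 0.31, SE, adjusted p = 0.0497). Slc4a11 lost its call in knock-down cells at 72 h without array 1 at 0 h (0.173) or array 2 at 72 h (0.211), and with median centring. Slc9a8 lost its call in knock-down cells at 72 h without array 1 at 0 h (0.0827), array 2 at 0 h (0.235) or array 1 at 72 h (0.332), and without the 3 resembling arrays, on the authors' processed values, with a block for the 3 resembling arrays, with median centring, without the detection filter or with only the compared groups fitted. The thiazide-sensitive sodium chloride cotransporter Slc12a3 and the anion exchanger Slc26a6 varied least, over 0.359 and 0.406 log2.

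Among the 25 metal carriers 1 was higher at 72 h in each cell type, Slc40a1, and at 6 d 1 was higher and 1 lower in knock-down cells and none in control cells. Slc40a1 encodes ferroportin, the exporter of iron. Knock-down cells had Slc40a1 log2 intensities of 5.40 and 5.69 (0 h), 7.21 and 7.18 (72 h) and 8.31 and 7.53 (6 d). Control cells had Slc40a1 at 6.05 and 5.50 (0 h), 8.08 and 7.98 (72 h) and 8.35 and 8.69 (6 d). All later arrays lay above all 0 h arrays, and the knock-down arrays lay below the control arrays at 72 h and 6 d. At 72 h Slc40a1 was at least 2.77-fold higher (adjusted p = 0.00383) in knock-down cells and higher (log2 change 2.26 ± 0.29, SE, adjusted p = 0.000614) in control cells, and these calls stood without each compared array. Slc39a10, a zinc importer of the plasma membrane, fell at 6 d in knock-down cells. The Slc39a10 probe read 8.07 and 7.72 (0 h), 7.75 and 7.68 (72 h) and 5.51 and 6.48 (6 d) on the log2 scale in knock-down cells. Slc39a10 in control cells read 7.72 and 7.59 (0 h), 7.80 and 8.08 (72 h) and 7.22 and 6.39 (6 d). The 6 d arrays were the lowest in both cell types, and the knock-down and control arrays overlapped at 6 d. Slc39a10 was lower (log2 change -1.72 ± 0.34, SE, adjusted p = 0.0254) at 6 d in knock-down cells, and its control difference of -1.13 log2 was not called. Slc39a10 lost its call in knock-down cells at 6 d without array 1 at 6 d (0.067), array 1 at 72 h (0.151) or array 2 at 72 h (0.132), and with only the compared groups fitted. Slc49a4, a lysosomal membrane protein of the heme transporter family, was detected on both knock-down arrays of 6 d and on no other array, and was at least 1.51-fold higher (adjusted p = 0.0227) than at 72 h. It became a member only through that group, so its height there is a condition of entry. Slc49a4 lost its call in knock-down cells at 6 d without array 1 at 72 h (0.145) or array 2 at 72 h (0.115), and on the authors' processed values or with only the compared groups fitted. The zinc carriers Slc39a7, of the endoplasmic reticulum and Golgi, and Slc30a6, of the Golgi, varied least, over 0.474 and 0.511 log2.

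Other genes of metal handling were tested from a list of 13 measured genes, chosen with earlier results of these data known, as were the lists below. Listed genes were not examined under the alternative settings or with arrays left out. Their calls thus carry the limit of scaling, since median centring shifted the median of all genes at 72 h by 0.617 in knock-down and 0.599 in control cells. At 72 h 1 was higher and 3 were lower in each cell type, and at 6 d none was higher and 1 lower in knock-down cells and 1 was higher and 2 lower in control cells. Tfrc, the receptor that takes up transferrin iron, was lower (log2 change -1.14 ± 0.25, SE, adjusted p = 0.0122) at 72 h in knock-down cells and lower (log2 change -1.0 ± 0.25, SE, adjusted p = 0.0238) in control cells, and at 6 d lower (log2 change -1.30 ± 0.25, SE, adjusted p = 0.0225) and lower (log2 change -1.41 ± 0.25, SE, adjusted p = 0.0213). The zinc and copper binding protein gene Mt2 was lower (log2 change -1.31 ± 0.25, SE, adjusted p = 0.00588) at 72 h in knock-down cells and lower (log2 change -1.29 ± 0.25, SE, adjusted p = 0.00667) in control cells, and Steap3, a ferrireductase, at least 1.25-fold higher (adjusted p = 0.00454) and at least 1.38-fold higher (adjusted p = 0.0149). From 72 h to 6 d Steap3 was at least 1.46-fold lower (adjusted p = 0.0433) in control cells and was not called in knock-down cells.

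The 25 mitochondrial carriers had 1 call each way at 72 h in knock-down cells and 2 each way in control cells, and none at 6 d. Slc25a36, which carries pyrimidine nucleotides, was lower in both. Slc25a36 measured 9.75 and 9.56 (0 h), 7.62 and 8.08 (72 h) and 8.60 and 8.60 (6 d) in log2 units in knock-down cells. The Slc25a36 values of control cells were 9.77 and 9.57 (0 h), 8.67 and 8.45 (72 h) and 8.62 and 8.71 (6 d). All 72 h arrays lay below all 0 h arrays, and at 72 h both knock-down arrays lay below both control arrays. Slc25a36 at 72 h was lower (log2 change -1.80 ± 0.22, SE, adjusted p = 0.000423) in knock-down cells and lower (log2 change -1.11 ± 0.22, SE, adjusted p = 0.00712) in control cells. Slc25a36 lost its call in control cells at 72 h without array 1 at 0 h (0.0592) or array 2 at 72 h (0.0848), and with median centring. Slc25a24, a calcium-regulated carrier that exchanges ATP-magnesium for phosphate, was higher in both. Slc25a24 gave log2 intensities of 4.85 and 4.58 (0 h), 7.23 and 6.60 (72 h) and 6.97 and 7.09 (6 d) in knock-down cells. It gave 5.36 and 4.74 (0 h), 6.77 and 6.93 (72 h) and 6.31 and 7.48 (6 d) in control cells. All later arrays lay above all 0 h arrays, and the cell types overlapped throughout. Slc25a24 was at least 2.29-fold higher (adjusted p = 0.00316) in knock-down cells and higher (log2 change 1.79 ± 0.37, SE, adjusted p = 0.00946) in control cells at 72 h, while another probe gave -0.35 in control cells. Slc25a24 lost its call in control cells at 72 h without array 2 at 0 h (0.0871), array 1 at 72 h (0.0567) or array 2 at 72 h (0.0828).

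The carnitine and acylcarnitine carrier Slc25a20 was higher (log2 change 0.72 ± 0.18, SE, adjusted p = 0.0234) at 72 h in control cells, where a second probe gave -0.07, and the mitochondrial iron importer Slc25a28 was lower (log2 change -0.86 ± 0.20, SE, adjusted p = 0.015). Slc25a20 lost its call in control cells at 72 h without any 1 of its 4 arrays (adjusted p 0.1 to 0.171), and with the mean of its probes. Slc25a28 lost its call in control cells at 72 h without array 1 at 0 h (0.106), array 1 at 72 h (0.104) or array 2 at 72 h (0.104), and with median centring. The phosphate carrier Slc25a3 and the ADP and ATP exchanger Slc25a5 varied least, over 0.234 and 0.409 log2 between group means. Of the 4 genes with a carrier symbol that encode no transporter, 1 was lower at 6 d in each cell type. That gene, Slc7a6os, lies beside Slc7a6 and encodes a protein whose yeast relative helps import RNA polymerase into the nucleus. Knock-down cells had Slc7a6os log2 intensities of 7.85 and 8.01 (0 h), 8.42 and 8.58 (72 h) and 7.41 and 7.54 (6 d). Control cells had Slc7a6os at 8.22 and 7.65 (0 h), 8.22 and 8.55 (72 h) and 6.93 and 7.26 (6 d). The 6 d arrays were the lowest in both cell types, with both knock-down arrays above both control arrays. Slc7a6os at 6 d was lower (log2 change -1.03 ± 0.25, SE, adjusted p = 0.0469) in knock-down cells and lower (log2 change -1.29 ± 0.25, SE, adjusted p = 0.0275) in control cells. Slc7a6os lost its call in knock-down cells at 6 d without any 1 of its 4 arrays (adjusted p 0.0725 to 0.233), and with the mean of its probes or with only the compared groups fitted, and in control cells at 6 d without any 1 of its 4 arrays (adjusted p 0.0725 to 0.275), and with the mean of its probes or with only the compared groups fitted. Slc4a1ap, an adaptor named for its binding to an anion exchanger, spanned 0.287 log2, and the scaffold Slc9a3r1 spanned 0.888.

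The stage changes of most members ran in the same direction in both cell types, as those of most genes did. At 72 h 11 members were called higher in both, which is 64.71% of the 17 called in knock-down cells and 73.33% of the 15 in control cells, and 10 were called lower in both, 62.5% of 16 and 90.91% of 11. Over all genes the shared share was 66.21% and 71.46% of the higher calls and 60.34% and 68.63% of the lower calls. At 6 d Slco2a1 was the only member called higher in both, 20% of 5 and 50% of 2, and 3 members were called lower in both, 60% of 5 in each, beside 46.3% and 68% of the higher and 36.75% and 55.96% of the lower calls over all genes. No member was called in opposite directions in the 2 cell types in either interval. Over the 177 members the change had the same sign in 142 (80.23%, beside 81.58% of all genes) from 0 h to 72 h and in 143 (80.79%, beside 79.47%) from 72 h to 6 d. The changes correlated across members at 0.89 and 0.799, and across all genes at 0.867 and 0.789; genes share the same arrays, so this is a description. The same-sign shares and correlations lie near those of all genes. The shares of shared calls, which rest on few calls, lie on either side of those of all genes, and the differences were not tested. None of these values is taken as a result about the transporters. Whether the change differed between the cell types was tested as an interaction, and no member passed in either interval (0% of all genes did in each). At an unadjusted p under 0.05 there were 4 members for 72 h, or 2.26% beside 3.67% of all genes, and 5 for 6 d, or 2.82% beside 1.92%. The members with the smallest adjusted p at 72 h were Slc6a12, with an interaction of -1.35 ± 0.35 (SE, adjusted p = 1), Slc39a3, with 1.04 ± 0.32 (SE, adjusted p = 1), and Slc22a23, with 1.27 ± 0.52 (SE, adjusted p = 1). At 6 d they were Slc49a4, with 1.00 ± 0.28 (SE, adjusted p = 1), the zinc exporter Slc30a4, with -1.43 ± 0.53 (SE, adjusted p = 1), and Slco2b1, with 1.17 ± 0.46 (SE, adjusted p = 1). Interactions are fitted values without bounds, also where a group did not detect the gene, as with Slc22a23 in knock-down cells at 0 h. Calls made in one cell type and not in the other were thus not shown to differ between them. Slc49a4 and Slco2b1 became members only through knock-down cells at 6 d, and Slc30a4 only through control cells at 6 d. Their 6 d values were thus also their condition of entry.

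**Figure D3:**
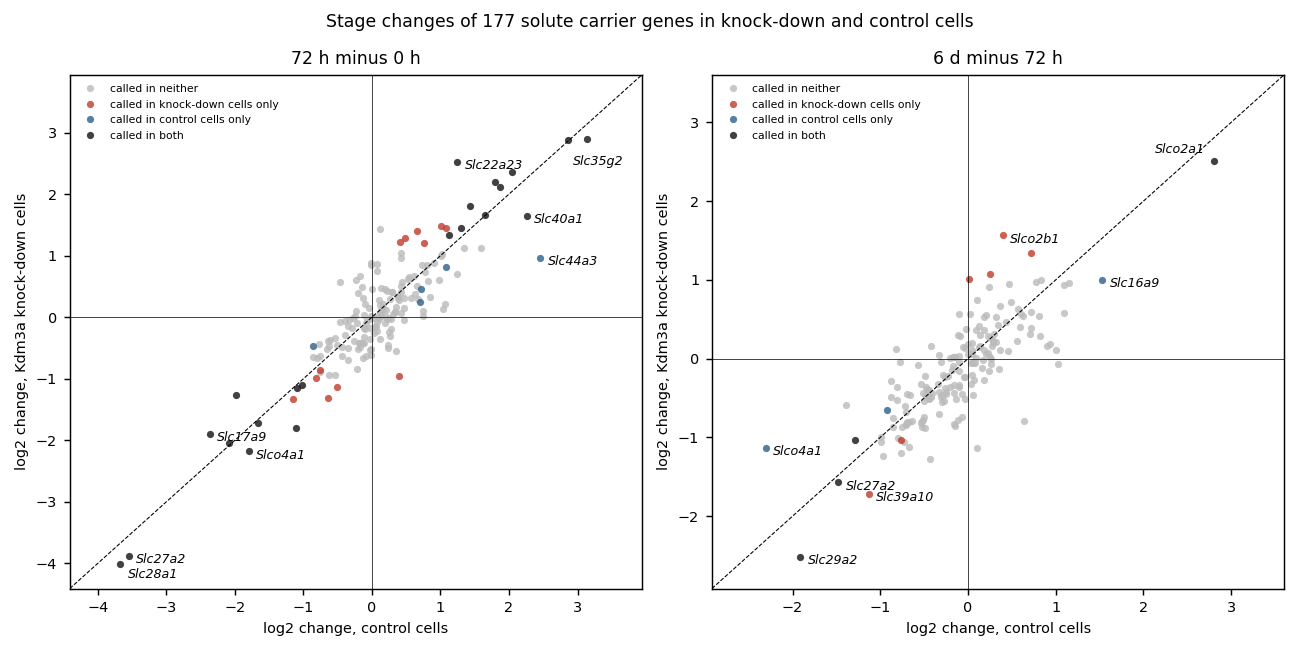
Log2 change of each of the 177 solute carrier genes in knock-down cells (y axis) against control cells (x axis), from 0 h to 72 h (left) and from 72 h to 6 d (right), coloured by where the change was called, with the dashed line at equal change. Most points lie near the line, with 142 and 143 members on the same side of 0 in both cell types.

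Knock-down was then set against control at each stage. No member passed at 0 h (0.0516% of all genes did), at 72 h (0.00861%), at 6 d (0%) or in the average over the stages (0.379%). An unadjusted limma p under 0.05 was reached by 15 members at 0 h, or 8.47% beside 8.23% of all genes, 14 at 72 h (7.91% beside 3.53%), 20 at 6 d (11.3% beside 7.83%) and 29 in the average (16.38% beside 12%). The smallest adjusted p was 0.1001 at 0 h, 0.9998 at 72 h, 0.202 at 6 d and 0.0662 in the average. The members' median difference was 0.0382 at 0 h, 0.0045 at 72 h and -0.0473 at 6 d, beside medians of all genes of 0.0014, 0.0054 and -0.0075. The genes below are given as values, as those with the smallest adjusted p.

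Slc39a3 encodes a zinc importer. The Slc39a3 probe read 5.19 and 5.00 (0 h), 5.63 and 5.70 (72 h) and 5.30 and 5.25 (6 d) on the log2 scale in knock-down cells. Slc39a3 in control cells read 6.66 and 6.27 (0 h), 5.86 and 6.14 (72 h) and 5.75 and 5.35 (6 d). Both knock-down arrays lay below both control arrays at each stage, and the knock-down arrays of 0 h and 6 d were below detection. Slc39a3 at 0 h was at least 1.67-fold lower (adjusted p = 0.1), and in the average over stages its difference was -0.66 ± 0.13 log2 (SE, adjusted p = 0.0736). That average is given as fitted, although it includes the knock-down groups below detection. Slc6a12 at 0 h was at least 1.33-fold higher (adjusted p = 0.205). Slc32a1, which loads GABA and glycine into vesicles, read 5.37 and 5.17 in knock-down cells and 6.22 and 6.64 in control cells at 0 h, and was at least 1.63-fold lower (adjusted p = 0.275). The arrays of the cell types did not overlap for any of these 3 genes at 0 h.

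At 72 h the member with the smallest adjusted p was Slc6a15, a carrier of branched-chain and other neutral amino acids, which read 5.90 and 6.76 in knock-down and 7.46 and 7.41 in control cells, lower (log2 change -1.10 ± 0.31, SE, adjusted p = 1). Slc25a36 was lower (log2 change -0.71 ± 0.22, SE, adjusted p = 1), and Slc44a3 lower (log2 change -1.56 ± 0.50, SE, adjusted p = 1). For all 3 both knock-down arrays lay below both control arrays at 72 h. At 6 d Slc39a8, an importer of zinc and manganese, came first. Slc39a8 measured 4.89 and 4.93 (0 h), 4.91 and 5.49 (72 h) and 5.39 and 5.25 (6 d) in log2 units in knock-down cells. The Slc39a8 values of control cells were 5.30 and 4.76 (0 h), 5.93 and 5.49 (72 h) and 6.95 and 6.47 (6 d). Only the control arrays of 6 d stood clear of the others, with the knock-down arrays of 6 d below detection. Slc39a8 at 6 d was at least 2.23-fold lower (adjusted p = 0.202), Slco4a1 higher (log2 change 1.62 ± 0.37, SE, adjusted p = 0.262) and Slc49a4 at least 1.34-fold higher (adjusted p = 0.303). Slc39a8 became a member only through control cells at 6 d, and Slc49a4 only through knock-down cells at 6 d. Their differences at 6 d thus involve the values that admitted them.

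In the average over stages Slc47a1 came first, at a difference of -0.78 ± 0.15 log2 (SE, adjusted p = 0.0662), lower on both knock-down arrays at each of 3 stages. Slco4a1 differed by 0.97 ± 0.22 log2 (SE, adjusted p = 0.0918), higher on both at each stage. These values lay close to the threshold and crossed it under other settings. Without knock-down 6 d array 2, Slc47a1, Slco4a1 and Slc39a3 had adjusted p of 0.033, 0.0256 and 0.0454, and without control 6 d array 2 Slc47a1 had 0.0473. The replicate block also brought Slco4a1 past the threshold, at an adjusted p of 0.0489. Over all alternatives the limma adjusted p ran from 0.0136 to 0.397 for Slc47a1, 0.0164 to 0.307 for Slco4a1 and 0.0454 to 0.29 for Slc39a3, with no change of direction. With a block for the 3 resembling arrays 5 members passed in the average, 1 higher and 4 lower, beside 133 of all 11621 genes. None passed at any stage alone in that fit. Without those arrays the averaged differences were -0.898 log2 for Slc47a1, 1.014 for Slco4a1 and -0.687 for Slc39a3.

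**Figure D4:**
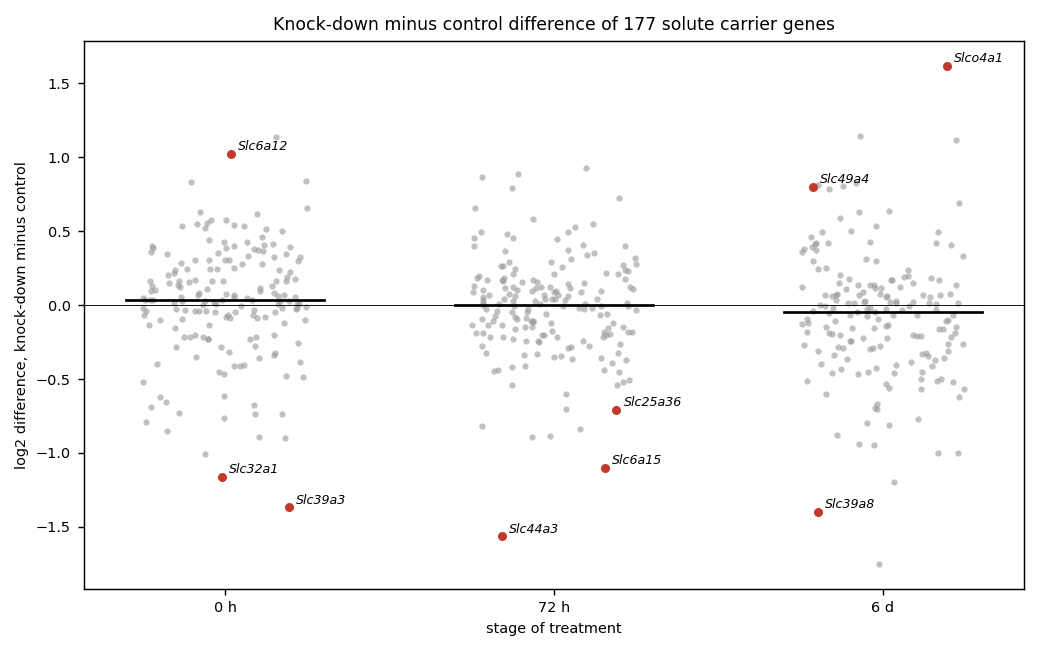
Log2 difference, knock-down minus control, of each of the 177 solute carrier genes (y axis) at 0 h, 72 h and 6 d (x axis), with the median as a bar, horizontal scatter for legibility, and the 3 members with the smallest adjusted p at each stage in red. The medians sit at 0.0382, 0.0045 and -0.0473, and no point passed the threshold.

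Partners and other transport genes were tested from 4 further lists, again without the alternative settings or arrays left out. Of 5 transporter partners, proteins that help carriers reach the membrane, 1 was higher at 72 h in each cell type. Emb, a chaperone of monocarboxylate transporters, was higher (log2 change 1.06 ± 0.27, SE, adjusted p = 0.0234) in knock-down cells and higher (log2 change 1.65 ± 0.27, SE, adjusted p = 0.00246) in control cells. Of 28 ABC transporters, pumps driven by ATP, 1 was higher and 2 lower at 72 h in knock-down cells and 1 and 3 in control cells, and none was called at 6 d. Abca14, whose substrate is not settled, was lower (log2 change -2.91 ± 0.24, SE, adjusted p = 4.04e-05) in knock-down cells and lower (log2 change -1.76 ± 0.24, SE, adjusted p = 0.000946) in control cells, and the sterol pump relative Abcg4 at least 2.33-fold higher (adjusted p = 0.00129) and higher (log2 change 0.98 ± 0.28, SE, adjusted p = 0.0418). Of 8 sodium pump subunits and water channels, 3 were higher at 72 h and 1 at 6 d in each cell type, with none lower. Aqp3, a channel for water and glycerol, was higher (log2 change 2.82 ± 0.31, SE, adjusted p = 0.000246) at 72 h in knock-down cells and higher (log2 change 3.18 ± 0.31, SE, adjusted p = 0.000108) in control cells, and the pump subunit gene Atp1b2 higher (log2 change 1.48 ± 0.29, SE, adjusted p = 0.00611) and at least 4.09-fold higher (adjusted p = 0.00038). The water channel gene Aqp8 was higher (log2 change 2.74 ± 0.42, SE, adjusted p = 0.00176) and higher (log2 change 3.09 ± 0.42, SE, adjusted p = 0.000893) at 72 h, and higher (log2 change 4.06 ± 0.42, SE, adjusted p = 0.00172) and higher (log2 change 3.87 ± 0.42, SE, adjusted p = 0.00173) at 6 d. Of 13 genes of the response to amino acid shortage, 2 were higher at 72 h and 1 at 6 d in each cell type, with none lower. The stress transcription factor gene Ddit3 was higher (log2 change 1.72 ± 0.21, SE, adjusted p = 0.00449) at 6 d in knock-down cells and higher (log2 change 1.93 ± 0.21, SE, adjusted p = 0.00182) in control cells. None of the genes on the 5 lists was called in any comparison of knock-down with control or in an interaction.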

How the data were processed

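Total RNA of cultured F9 cells was isolated with Tripure and column-purified, and biotinylated cRNA was hybridised to Illumina MouseWG-6 v2 bead arrays, per the labels' protocols. The authors deposited 1 table of intensity per probe and array without normalization between arrays, with a detection p-value beside each intensity, per the file headers; the sources used here do not name the scanner software. Detection p-values take 936 steps. A second deposited table holds processed intensity values on a linear scale whose columns share about 1 median, and it served as an alternative. All 12 arrays were used, and 0 per-sample columns were set aside.

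From the deposited intensities, background was corrected with normexp from the detection p-values (offset 16), followed by quantile normalization and log2 in limma 3.58.1 (R 4.3.3). Of 45281 probes, 21525 were kept, namely those that 2 or more arrays detected at p under 0.05. The platform annotation gave 34885 probes 1 gene symbol, 18 several and 10378 none, and only those with 1 were named. The brightest kept probe stood for a gene, which left 11621 genes, and all 177 solute carrier symbols matched RefSeq. A model with 1 mean for each of 6 groups was fitted (residual df 6, prior df 4.637) and 10 comparisons were drawn, each with Benjamini-Hochberg adjustment over all genes; the procedure was tested on simulated data. A gene with no kept probe under a detection p of 0.05 on either array of a group was taken as undetected there. Its fold between 2 groups is then given as "at least", the bright group's mean against the higher, per array, of the gene's own signal and the lowest signal of a detected probe. Averages over stages and interactions have no such bound. Without the arrays' bead counts, their number limits the precision.

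Members, the 11 substrate classes, the other gene lists and the tests were chosen with earlier results of these data known, so no pattern here is independent support. The class of a member was set by its gene symbol where listed and otherwise by its family symbol. A class can therefore hold members that are not known to carry its substrate. Named in each class were the called members with the largest change in control cells (up to 3 rising and 3 falling at 72 h, 2 and 2 at 6 d), the 2 members that varied least, those detected in 1 group, and, where nothing passed, the 3 with the smallest adjusted p in each comparison with the knock-down. The labels call the 2 arrays of a group biological replicates without saying what was separate, so p-values measure the spread between these arrays. Whether the replicate numbers pair arrays was checked over 15 pairs of groups: deviations correlated at -0.107 to 0.53, with 7 over 0.1 and the highest between the knock-down and control groups of 6 d. Such values do not exclude pairs. The numbers were not taken as pairs in the main fit, and a replicate block was run as an alternative. Alternatives were median centring, the processed table, no filter, a stricter filter (4 or more arrays at p under 0.01), the mean of a gene's probes, only the compared groups, a replicate block, leaving out each array, and, chosen after seeing the data, leaving out or blocking the 3 resembling arrays.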

Additional observations from a re-analysis of the deposited data

How the results depend on the processing

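Counts of called members depended on the scaling and on a few arrays. Median centring gave 82 calls at 72 h and 61 at 6 d in knock-down cells, 93 and 57 in control cells, and 6 in the knock-down difference averaged over stages, where quantile normalization gave 33, 10, 26, 7 and 0. Over all 11621 genes median centring gave 4621 and 2216 calls in knock-down cells, 4225 and 2211 in control cells, and 138 in the averaged difference. The direction of Slc10a7 at 72 h in knock-down cells turned to 0.005 under median centring. The averaged difference had 2 calls with the authors' processed table, 1 with the stricter filter and 1, Slco4a1, with the replicate block. Of all genes tested, 133, 63 and 67 passed in these fits. With only the compared groups fitted there were 54 calls at 72 h in control cells and 1 at 6 d in knock-down cells, beside 2974 and 17 of all genes. Leaving out the 3 resembling arrays, chosen after seeing the data, gave 55 calls at 72 h in control cells, 23 at 6 d in knock-down cells and 7 in the averaged difference, and a block for them gave 43, 17 and 5. The causes of these shifts were not tested. Leaving out in turn each array of the groups compared gave 19 to 24 and 13 to 15 calls at 72 h in knock-down and control cells, 0 to 10 and 0 to 3 at 6 d, 0 to 4 in the averaged difference and 0 in the others.

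Of 76 called values of named genes, 76 kept the call under the replicate block, 73 with the block for the 3 arrays, 70 without those arrays, 70 without the filter, 65 with the mean of probes, 64 with the processed table, 62 with median centring and 62 with only the compared groups, and 72 of 72 that could be tested did under the stricter filter. The replicate numbers were not taken as pairs in the main fit, and the replicate block ended no call among the named values and added that of Slco4a1 in the averaged difference. Among all members the replicate block gave 39 calls at 72 h and 13 at 6 d in knock-down cells, and 38 and 8 in control cells, each more than the main fit. Of all genes, 2259 and 578 passed in knock-down cells and 2048 and 413 in control cells under that block. With the numbers of the control 72 h arrays crossed, all 7 of 7 calls of control cells at 6 d were kept. A block for the slide was not run, since the files give no slide. In the named differences between 2 groups, members that neither array of a group detected carry only bounds. Those detected on 1 of 2 arrays are given as fitted. Averages over stages, interactions and the opposite moves below are fitted values without bounds, even where a group did not detect the gene. The 2 arrays a group limit every value, and a detection p threshold of 0.05 would have taken 206 members.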

Other observations

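A few members moved in opposite directions in the 2 cell types without overlap between the arrays of the stages, namely 5 of 177 (2.82%) from 0 h to 72 h, beside 2.14% of all 11621 genes, and 0 from 72 h to 6 d, beside 1.24%. Their number is thus near that of all genes. From 0 h to 72 h, Slc39a3 changed by 0.571 log2 in knock-down and -0.465 in control cells, and Slc6a19, a neutral amino acid transporter of the gut and kidney, by 0.671 and -0.178. Slc17a5, the lysosomal exporter of sialic acid, changed by -0.497 and 0.235, the mitochondrial carrier Slc25a16 by -0.35 and 0.122, and the anion exchanger Slc4a2 by -0.246 and 0.253. The interaction of each had an adjusted p of 1 in the limma fit, and none of these members was called in either cell type at 72 h. They were picked for this pattern after their values were seen. The change of Slc39a3 in knock-down cells is a fitted value that starts from arrays below detection at 0 h.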
